A study of Mus musculus with 12 samples.

Results

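The genes described here are 44 genes of mitosis and the G2/M transition: mitotic cyclins and CDK1, mitotic and checkpoint kinases, partners of the anaphase-promoting complex, centromere and kinetochore proteins, kinesins, spindle proteins, cytokinesis proteins and a pair of chromosome proteins. They were taken by gene symbol from a list of such genes, a rule that itself uses no measured value. The list was, however, chosen with earlier results of these data known. All 44 were found among the 53452 genes of the deposited count table, and all 44 were among the 16036 genes that passed the filter on low counts. RNA was sequenced from 12 samples of wild-type mouse liver cells that the labels abbreviate as HSCs, read here as hepatic stellate cells, the vitamin A-storing pericytes that become matrix-producing myofibroblasts in culture and in injured liver. The cells had been cultured for 12 h before a medium change, and each group has 3 libraries. Riociguat, a drug that stimulates soluble guanylate cyclase and so raises cGMP, was added 18 h after that change for an exposure of 6 h, 12 h after it for 12 h, or at the change itself for 24 h. The solvent DMSO was added 12 h after the change for 12 h. Every group was therefore collected 24 h after the medium change, and the 6 h and 24 h exposures were compared with DMSO given for 12 h. In those comparisons the compound cannot be told apart from the length of exposure and the stage of culture at addition. No dose is stated in the labels. The labels do not say whether the samples of a group came from separate animals or cultures, so the p-values reflect only the variation among these samples, and that variation may be technical.

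Cells entering mitosis switch on a shared set of genes late in S phase and in G2. Cyclin B with CDK1 drives entry into mitosis, polo-like and Aurora kinases build the spindle, checkpoint kinases hold the anaphase-promoting complex until the kinetochores are attached, and a separate set of motors and scaffold proteins divides the cell. Many of these genes are held off in resting cells by the DREAM complex and switched on by B-MYB and FOXM1 through a promoter element called the CHR (cell cycle genes homology region), often beside CCAAT boxes bound by NF-Y. Quiescent stellate cells hardly divide, whereas activated ones do.

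Promoters of 7 of the genes are shown because most of the group shares these elements and because the results below turn on several of these genes. Each is 300 bases of the mouse genome from RefSeq, build GRCm38.p6, from 250 bases before to 50 after the annotated start of the gene, written 5′ to 3′ on the strand of the gene. Capitals mark the CHR word TTTGAA and the CCAAT box CCAAT, or their reverse complements TTCAAA and ATTGG. The window of Mki67 lies at chr7:135716330-135716629 on the minus strand, that of Top2a at chr11:99024140-99024439 on the minus strand, that of Cdk1 at chr10:69352863-69353162 on the minus strand and that of Kif11 at chr19:37376132-37376431 on the plus strand. The window of Ube2c lies at chr2:164769679-164769978 on the plus strand and that of Plk1 at chr7:122159185-122159484 on the plus strand. Ccnb1, at chr13:100786437-100786736 on the minus strand, is shown as a gene whose window holds CCAAT boxes without TTTGAA. The capitals do not mark the CHR variant TTTAAA, which the Ccnb1 window does hold.
Mki67: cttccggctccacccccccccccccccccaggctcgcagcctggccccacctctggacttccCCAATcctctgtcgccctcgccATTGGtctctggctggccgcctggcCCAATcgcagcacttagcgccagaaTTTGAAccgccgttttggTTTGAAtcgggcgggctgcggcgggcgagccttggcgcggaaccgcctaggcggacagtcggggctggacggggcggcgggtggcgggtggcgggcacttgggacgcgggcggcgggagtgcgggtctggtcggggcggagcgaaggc
Top2a: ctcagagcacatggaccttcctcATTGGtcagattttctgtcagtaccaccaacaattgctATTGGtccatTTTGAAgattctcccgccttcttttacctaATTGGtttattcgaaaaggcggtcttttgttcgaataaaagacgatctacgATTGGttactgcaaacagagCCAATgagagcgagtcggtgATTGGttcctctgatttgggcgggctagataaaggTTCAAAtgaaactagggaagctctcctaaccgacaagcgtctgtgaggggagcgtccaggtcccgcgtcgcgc
Cdk1: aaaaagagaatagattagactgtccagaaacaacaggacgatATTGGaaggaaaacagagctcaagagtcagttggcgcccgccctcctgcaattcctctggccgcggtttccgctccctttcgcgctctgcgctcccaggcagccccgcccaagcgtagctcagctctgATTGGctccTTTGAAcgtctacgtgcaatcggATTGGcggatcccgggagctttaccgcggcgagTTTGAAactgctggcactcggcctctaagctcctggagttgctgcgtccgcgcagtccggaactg
Kif11: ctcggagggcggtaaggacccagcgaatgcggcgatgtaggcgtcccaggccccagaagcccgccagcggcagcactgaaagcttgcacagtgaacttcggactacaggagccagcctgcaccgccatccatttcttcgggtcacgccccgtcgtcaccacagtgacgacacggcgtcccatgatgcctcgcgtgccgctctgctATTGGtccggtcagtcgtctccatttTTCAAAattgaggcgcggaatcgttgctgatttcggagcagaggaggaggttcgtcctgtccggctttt
Ube2c: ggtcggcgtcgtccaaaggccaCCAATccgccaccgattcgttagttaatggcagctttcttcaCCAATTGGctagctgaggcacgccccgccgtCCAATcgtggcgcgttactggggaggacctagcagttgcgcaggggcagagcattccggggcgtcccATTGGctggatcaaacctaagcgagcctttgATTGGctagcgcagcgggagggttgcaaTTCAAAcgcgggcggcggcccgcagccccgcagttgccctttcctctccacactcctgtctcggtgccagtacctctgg
Plk1: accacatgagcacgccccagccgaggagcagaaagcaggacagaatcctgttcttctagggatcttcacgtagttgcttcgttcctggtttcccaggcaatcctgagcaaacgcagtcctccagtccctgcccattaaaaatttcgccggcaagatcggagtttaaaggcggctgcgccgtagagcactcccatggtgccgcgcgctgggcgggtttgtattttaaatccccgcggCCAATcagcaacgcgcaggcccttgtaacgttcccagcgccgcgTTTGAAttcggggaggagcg
Ccnb1: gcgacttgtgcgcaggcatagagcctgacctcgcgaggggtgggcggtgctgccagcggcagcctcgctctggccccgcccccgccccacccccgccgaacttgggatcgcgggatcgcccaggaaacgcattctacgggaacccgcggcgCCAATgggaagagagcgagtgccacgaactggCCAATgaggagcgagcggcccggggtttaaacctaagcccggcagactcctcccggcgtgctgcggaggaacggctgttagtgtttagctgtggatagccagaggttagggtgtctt

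Promoters were matched for 36 of the 44 genes. Aurkb, Ccna2, Cdc25c, Dlgap5, Foxm1, Kif20a, Pbk and Tpx2 were not matched. On either strand, TTTGAA was found in 28 of the 36 (77.8%), against 14.8% of 11627 tested genes with a promoter of the same length and 12.5% of 32 genes of DNA replication and S phase. CCAAT was found in 29 of the 36 (80.6%), against 42.4% of tested genes and 56.2% of the S phase genes. Both words were found in 25 (69.4%), against 7.23% of tested genes. At least 2 CCAAT matches in 1 window were found in 21 (58.3%), against 16.0% of tested genes and 34.4% of the S phase genes. In contrast, any of the E2F words TTTGGCGC, TTTCGCGC, TTTGCCGC and TTTCCCGC was found in 1 of the 36 windows (2.78%), against 40.6% of the S phase windows and 4.42% of tested genes. The median position of the TTTGAA matches was 2 bases after the start, and that of the CCAAT matches was -66, which is upstream of it. The TTTGAA matches ran from -215 in Kif22 to 41 in Ckap2l, and 29 of 39 lay between -40 and 50. Those of Mki67 were at -116 and -98. Ect2 and Prc1 each have more than 1 window, overlapping, and the matches in each were counted. In 1 window a TTTGAA match and a CCAAT match share a base. Birc5, Nuf2, Nusap1 and Tacc3 hold neither word in these windows. The matches are letters in a window, not measured binding.

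The level of each gene is given as CPM, its read count relative to the library total after TMM scaling. Library totals ran from 12953096 to 27358893 counts, and both extremes are libraries of the 6 h group. Each of the 44 genes had counts above 0 in all 12 libraries, from 13 counts for Cdc25c to 1535 for Mki67. In DMSO the median of their mean levels was 7.77 CPM, with Cdc25c at 0.739 ± 0.188 and Mki67 at 45.7 ± 1.900 CPM (SD, n = 3). Levels per kilobase used the joined length of all annotated exons of a gene, which can exceed the length of the transcripts expressed. This length ran from 692 bases for Cks2 to 15433 for Cenpf, so the order between genes is only rough. On that scale Cks2 was highest in DMSO at 22.9 CPM per kb. Ckap2 followed at 6.33, Cdc20 at 5.29, Mki67 at 4.54, Tacc3 at 4.44 and Top2a at 4.35 CPM per kb, and the lowest were Ndc80 at 0.433 and Cdc25c at 0.150. The median coefficient of variation between replicates lay between 9.36% in the 12 h group and 13.4% in the 6 h group. In bulk RNA, fewer dividing cells and less of these transcripts per dividing cell cannot be told apart.

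The 44 genes were ordered by the length of exposure to riociguat. All 44 had their lowest riociguat mean at 6 h, a higher one at 12 h and the highest at 24 h, and for all 44 the 24 h mean was the highest of the 4 groups. Summed over the 44, the level was 466, 472 and 451 CPM in the DMSO libraries, 317, 359 and 307 after 6 h, 439, 472 and 451 after 12 h, and 690, 626 and 581 after 24 h. The 6 h libraries all lay below DMSO and the 24 h libraries all above it, whereas the 12 h and DMSO libraries overlapped. The mean sum was 70.8%, 98.0% and 137% of DMSO at 6, 12 and 24 h, and it was 1.93 times as high at 24 h as at 6 h. By role, that 24 h to 6 h ratio ran from 1.65 for the mitotic and checkpoint kinases to 2.48 for Mki67 and Top2a together.

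**Figure D1:**
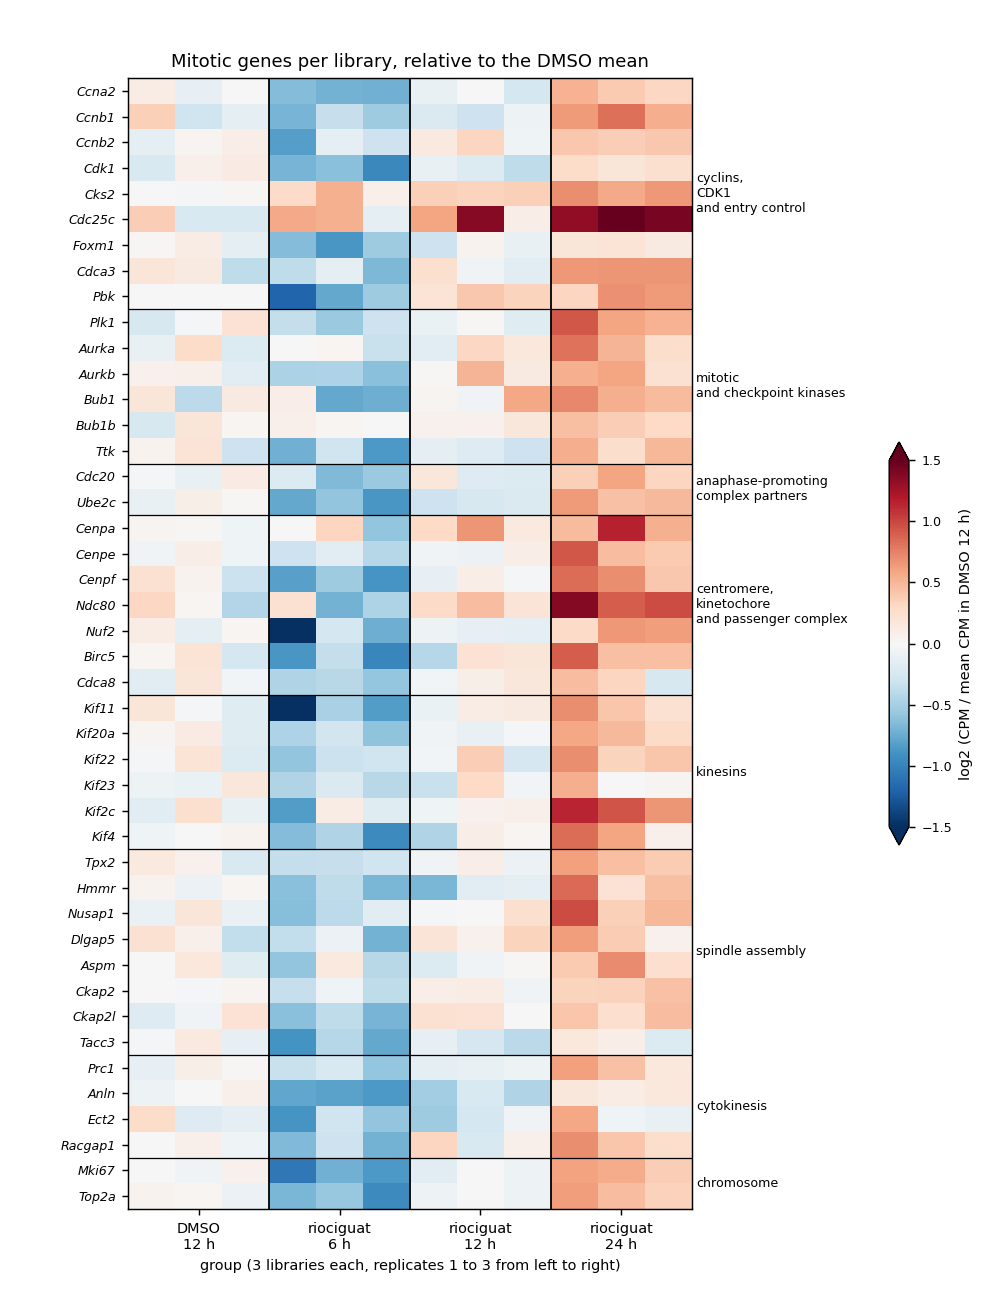
Level of each of the 44 genes (rows, grouped by role) in each of the 12 libraries (columns, 3 per group), as log2 of CPM over the mean DMSO level of the gene; the colour scale ends at -1.5 and 1.5. The columns of riociguat 6 h are mostly below the DMSO mean and those of riociguat 24 h mostly above it, and Cks2, Cdc25c and Bub1b are the 3 genes whose lowest group mean is not at 6 h.

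Changes were tested gene by gene with edgeR's quasi-likelihood test over all 16036 genes, and a gene is said to have changed where its Benjamini-Hochberg adjusted p was under 0.05. The 6 h, 12 h and 24 h exposures were compared with the same DMSO libraries, so these 3 comparisons share their controls. After 6 h, 15 of the 44 fell and 0 rose, while 5.24% of all tested genes fell and 4.48% rose. At an unadjusted p under 0.05 the counts were 30 lower and 1 higher, and DESeq2 called 24 lower and 1 higher. The median log2 fold change of the 44 was -0.48, with a range from -0.87 to 0.33 and 41 below 0, where the median of all genes was -0.0044. After 12 h, 1 rose and 1 fell, against 2.18% and 3.48% of all tested genes, and the median was -0.00043 with 22 genes on either side of 0. After 24 h, 21 rose and 0 fell, against 5.94% and 7.41% of all tested genes. At an unadjusted p under 0.05, 35 were higher and 0 lower at 24 h, and DESeq2 called 28 higher and 0 lower. All 44 were above 0 at 24 h, with a median of 0.49 and a range from 0.03 to 1.48.

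Library by library, all 3 of the 6 h samples were below all 3 DMSO samples for 32 of the 44 genes, a pattern that 13.6% of tested genes showed. All 24 h samples were above all DMSO samples for 38 of the 44, against 12.6% of tested genes. The 6 whose 24 h and DMSO samples overlapped were Aurka, Cdca8, Kif23, Dlgap5, Tacc3 and Ect2. The 15 genes that fell at 6 h had a median DMSO level of 12.4 CPM and a median standard error of 0.131 on the log2 scale. The other 29 had a median DMSO level of 6.18 CPM, a median standard error of 0.195 and a median log2 fold change of -0.375. At 24 h the 23 genes that did not pass had a median DMSO level of 6.9 CPM, a median log2 fold change of 0.445 and a median standard error of 0.177.

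**Figure D2:**
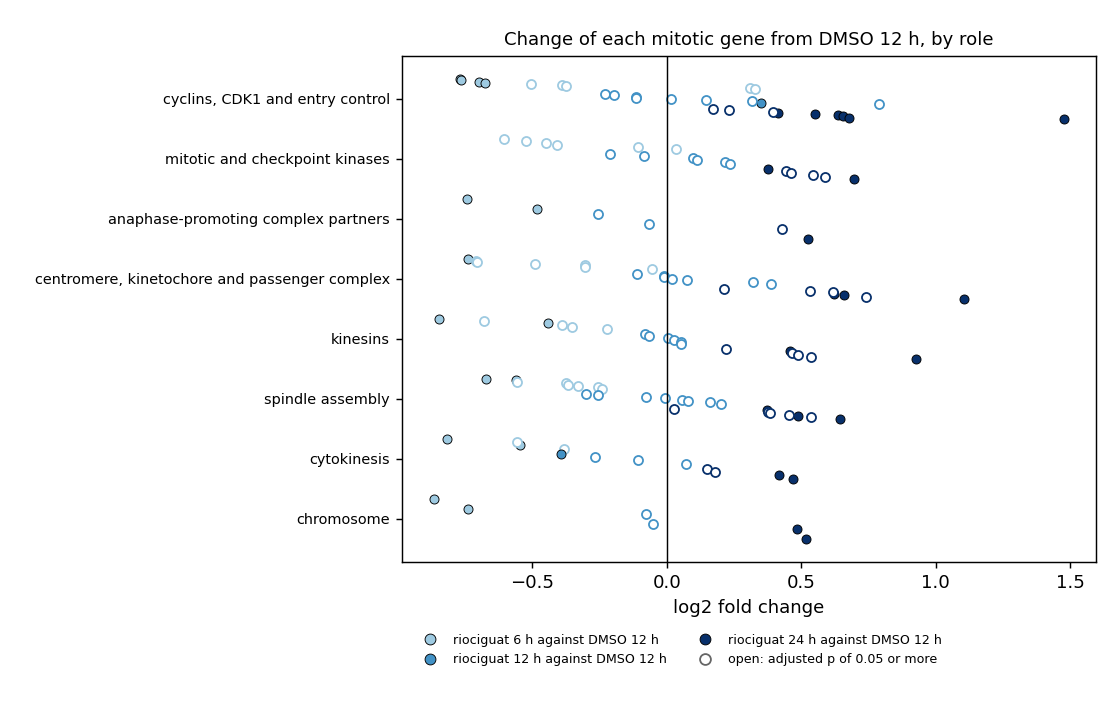
Fitted log2 fold change of each of the 44 genes against DMSO 12 h (horizontal axis) by role (vertical axis), for riociguat 6 h, 12 h and 24 h; filled points have an adjusted p under 0.05 and open points do not. Filled points at 6 h lie to the left of 0 and filled points at 24 h to the right of it, and at 12 h the filled points are Anln and Cks2.

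Both chromosome proteins fell at 6 h and rose at 24 h, against 5.24% and 5.94% of all tested genes. Mki67 (chr7:135689784-135716361, minus strand, gene bounds from GENCODE on GRCm38) encodes Ki-67, which coats mitotic chromosomes and is the usual marker of cycling cells. It stood at 45.5, 43.9 and 47.6 CPM in DMSO, 21.8, 27.7 and 25.1 after 6 h, 40.6, 45.9 and 43.2 after 12 h, and 69.6, 67.2 and 59.2 after 24 h. The 6 h libraries were below every other library, the 24 h libraries above every other, and the 12 h libraries overlapped DMSO. Against DMSO, Mki67 fell by 0.87 on the log2 scale at 6 h (SE 0.086, adjusted p = 3.79e-06) and rose by 0.52 at 24 h (SE 0.081, adjusted p = 0.000307). At 12 h its log2 fold change was -0.08 (adjusted p = 0.717), with a 95% interval from -0.25 to 0.10. Top2a (chr11:98992943-99024189, minus strand) encodes topoisomerase II alpha, which disentangles sister chromatids. It was at 40.8, 39.9 and 36.9 CPM in DMSO, 24.3, 26.4 and 20.2 after 6 h, 37.03, 39.2 and 37.2 after 12 h, and 60.5, 54.1 and 49.95 after 24 h. Its 6 h and 24 h libraries were separated from all others in the same way. Top2a fell by 0.74 at 6 h (SE 0.094, adjusted p = 5.44e-05), had a log2 fold change of -0.05 (adjusted p = 0.851) at 12 h and rose by 0.49 at 24 h (SE 0.089, adjusted p = 0.00121). A small annotated gene, Gm23451, overlaps an exon of Top2a on the same strand.

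Of the 9 genes of cyclins, CDK1 and entry control, 4 fell at 6 h and 6 rose at 24 h. Among all tested genes, 5.24% fell at 6 h and 5.94% rose at 24 h. Ccna2 (chr3:36564865-36572150, minus strand), the A-type cyclin of S phase and G2, was at 15.8, 13.5 and 14.8 CPM in DMSO, 9.36, 8.98 and 8.93 after 6 h, 13.6, 14.8 and 12.2 after 12 h, and 21.1, 19.3 and 18.2 after 24 h. All 6 h libraries were below DMSO and all 24 h libraries above it. Ccna2 fell by 0.70 at 6 h (SE 0.1, adjusted p = 0.000241) and rose by 0.41 at 24 h (SE 0.096, adjusted p = 0.00789), and the 24 h call did not hold with DMSO replicate 2 left out (log2 fold change 0.35, adjusted p = 0.0535). Cdk1 (chr10:69335146-69352938, minus strand), the catalytic partner of cyclins A and B, was at 11.8, 14.5 and 15.1 CPM in DMSO, 8.49, 8.93 and 7.08 after 6 h, 12.7, 11.97 and 10.6 after 12 h, and 16.7, 15.6 and 16.2 after 24 h. Its 6 h libraries were well below DMSO and its 24 h libraries just above it. Cdk1 fell by 0.76 at 6 h (adjusted p = 0.000508), and its log2 fold change was -0.23 (adjusted p = 0.341) at 12 h and 0.23 (adjusted p = 0.219) at 24 h. Foxm1, the transcription factor that switches on many G2/M genes, fell by 0.68 at 6 h (adjusted p = 0.000906), from 15.8 ± 1.42 to 9.87 ± 1.18 CPM, and stood at 17.8 ± 0.432 CPM at 24 h, a log2 fold change of 0.17 (adjusted p = 0.346). Exons of Foxm1 overlap Tex52 and Gm44596 on the same strand, so reads may be shared between them. Pbk, a mitotic kinase, had the lowest value of this role at 6 h, where it fell by 0.77 (adjusted p = 0.0131), and it rose by 0.55 at 24 h (adjusted p = 0.0437). Neither call of Pbk held under all the alternative settings tried. The 24 h call was lost with any 1 DMSO library or 24 h replicate 2 or 3 left out (adjusted p 0.0717 to 0.119).

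The B-type cyclins, which activate CDK1 at mitotic entry, did not pass the test at 6 h. Ccnb1 was at 10.6, 6.74 and 7.46 CPM in DMSO, 5.11, 6.51 and 5.71 after 6 h, 7.12, 6.69 and 7.85 after 12 h, and 12.9, 14.7 and 12.1 after 24 h, with DMSO replicate 1 above the other DMSO libraries and all 24 h libraries above DMSO. Ccnb1 rose by 0.68 at 24 h (SE 0.16, adjusted p = 0.00802), a call that did not hold with DMSO replicate 2 left out (log2 fold change 0.55, adjusted p = 0.0519), and its log2 fold change at 6 h was -0.50 (adjusted p = 0.0672). Ccnb2 had log2 fold changes of -0.37 (adjusted p = 0.281) at 6 h and 0.39 (adjusted p = 0.206) at 24 h. Both have a pseudogene of the same name in the annotation, so reads could be split between copies. Cks2, a small CDK-binding subunit, differed from most of the group in not being lowest at 6 h. It was at 15.9, 15.6 and 15.98 CPM in DMSO, 19.3, 22.9 and 16.7 after 6 h, 20.2, 19.97 and 20.3 after 12 h, and 25.6, 23.4 and 24.8 after 24 h, above DMSO in every riociguat library. Cks2 rose by 0.35 at 12 h (SE 0.097, adjusted p = 0.043) and rose by 0.64 at 24 h (SE 0.096, adjusted p = 0.000209). Cdc25c, the phosphatase that activates CDK1, was the least abundant of the 44, at 0.739 ± 0.188 CPM in DMSO and 2.07 ± 0.270 at 24 h. It rose by 1.48 at 24 h (SE 0.38, adjusted p = 0.0142), with 0.33 (adjusted p = 0.694) at 6 h and 0.79 (adjusted p = 0.318) at 12 h. That rise did not pass with DMSO replicate 2 or DMSO replicate 3 left out (log2 fold change 1.37, adjusted p = 0.0666 and log2 fold change 1.39, adjusted p = 0.0564). Cdca3, a trigger of mitotic entry, rose by 0.66 at 24 h (adjusted p = 0.0254), which did not hold with DMSO replicate 3 or any 1 24 h library left out (adjusted p from 0.0524 to 0.11).

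**Figure D3:**
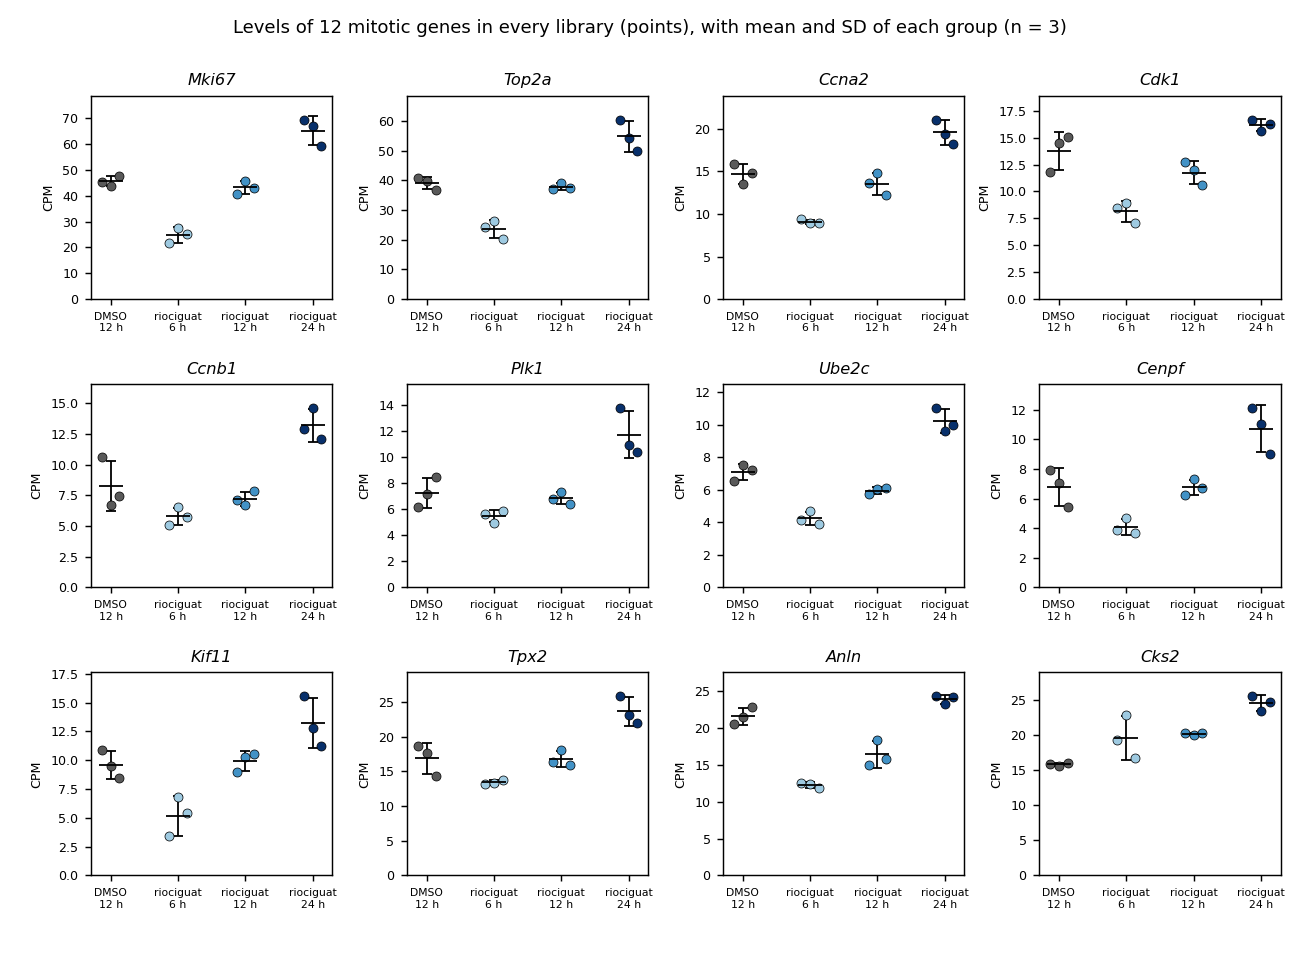
Level in CPM (vertical axes, from 0) of 12 of the genes in each of the 12 libraries (points), with the mean (long bar) and SD (whiskers) of each group, n = 3. For 11 of the 12 genes the 6 h group has the lowest mean, and Cks2 is the exception, with every riociguat library above DMSO.

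Of the 6 mitotic and checkpoint kinases, 0 changed at 6 h and 2 rose at 24 h. Among all tested genes, 5.24% fell and 4.48% rose at 6 h, and 5.94% rose at 24 h. At an unadjusted p under 0.05, 3 were lower at 6 h and all 6 were higher at 24 h, and DESeq2 called 1 lower at 6 h and 4 higher at 24 h. Plk1, the polo-like kinase of mitotic entry and spindle assembly, was at 6.17, 7.16 and 8.47 CPM in DMSO, 5.66, 4.93 and 5.86 after 6 h, 6.78, 7.35 and 6.42 after 12 h, and 13.8, 10.98 and 10.4 after 24 h. The 24 h libraries lay above all others, and the 6 h libraries, by a smaller margin, below all others. Plk1 rose by 0.69 at 24 h (SE 0.15, adjusted p = 0.00448), with -0.41 (adjusted p = 0.122) at 6 h. Aurkb, the Aurora kinase of the chromosomal passenger complex, was at 6.904 ± 0.613 CPM in DMSO, 4.82 ± 0.292 at 6 h, 8.12 ± 1.51 at 12 h and 9.52 ± 1.24 at 24 h. Its log2 fold changes, -0.52 (adjusted p = 0.052) at 6 h and 0.46 (adjusted p = 0.059) at 24 h, did not pass the threshold, and it was 0.24 (adjusted p = 0.498) at 12 h. For Aurka, the centrosomal Aurora kinase, the 24 h value was 0.54 (adjusted p = 0.0583). Bub1, a checkpoint kinase, had -0.45 (adjusted p = 0.297) at 6 h and 0.59 (adjusted p = 0.11) at 24 h. Bub1b, which encodes the checkpoint protein BubR1, had 0.03 (adjusted p = 0.89) at 6 h and rose by 0.37 at 24 h (adjusted p = 0.0168), a call that did not hold with DMSO replicate 1 or 24 h replicate 1 left out (log2 fold change 0.27, adjusted p = 0.0634 and log2 fold change 0.34, adjusted p = 0.0638). Ttk, the kinase MPS1, had -0.61 (adjusted p = 0.0941) at 6 h and -0.21 (adjusted p = 0.689) at 12 h.

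Both partners of the anaphase-promoting complex, the ubiquitin ligase that ends mitosis, fell at 6 h, against 5.24% of all tested genes. Ube2c, its ubiquitin-conjugating enzyme, was at 6.56, 7.54 and 7.21 CPM in DMSO, 4.17, 4.697 and 3.89 after 6 h, 5.71, 6.03 and 6.13 after 12 h, and 11.1, 9.61 and 9.99 after 24 h. The 4 groups separated without overlap, with the 12 h libraries below DMSO. Ube2c fell by 0.74 at 6 h (SE 0.14, adjusted p = 0.00217), had -0.26 (adjusted p = 0.366) at 12 h and rose by 0.53 at 24 h (SE 0.13, adjusted p = 0.0124). Cdc20, its mitotic activator, was at 9.88 ± 0.828 CPM in DMSO, 7.17 ± 1.24 at 6 h and 13.3 ± 1.42 at 24 h. It fell by 0.48 at 6 h (adjusted p = 0.0472), had -0.06 (adjusted p = 0.881) at 12 h and 0.43 (adjusted p = 0.0519) at 24 h. The 6 h call of Cdc20 did not hold with any 1 DMSO library or 6 h replicate 2 or 3 left out (adjusted p from 0.0605 to 0.193). Exons of Cdc20 and Ube2c overlap genes on the other strand, as do those of 11 more of the 44, and how the counting used strand is not stated.

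Among the 7 genes of the centromere, kinetochore and passenger complex, 1 fell at 6 h and 3 rose at 24 h. The shares among all tested genes were 5.24% and 5.94%. Cenpf, a large kinetochore protein that accumulates in G2, was at 7.94, 7.04 and 5.42 CPM in DMSO, 3.85, 4.697 and 3.67 after 6 h, 6.25, 7.305 and 6.72 after 12 h, and 12.1, 11.04 and 9.002 after 24 h. All 6 h libraries were below DMSO and all 24 h libraries above. Cenpf fell by 0.74 at 6 h (SE 0.18, adjusted p = 0.0123), which did not hold with 6 h replicate 3 left out (log2 fold change -0.65, adjusted p = 0.0662). At 24 h it rose by 0.66 (SE 0.16, adjusted p = 0.0122), which did not hold with DMSO replicate 3 or 24 h replicate 1 left out (log2 fold change 0.53, adjusted p = 0.0593 and log2 fold change 0.57, adjusted p = 0.0589). Ndc80, the microtubule-binding subunit of the outer kinetochore, had the highest 24 h value of the role and rose by 1.10 (SE 0.25, adjusted p = 0.0057), from 2.81 ± 0.707 to 6.04 ± 1.096 CPM. Cenpe, the kinetochore motor that aligns chromosomes, rose by 0.62 at 24 h (adjusted p = 0.00496). Birc5, which encodes survivin of the passenger complex, was at 6.05 ± 0.964 CPM in DMSO, 3.71 ± 0.904 at 6 h and 9.29 ± 1.76 at 24 h. Its log2 fold changes were -0.70 (adjusted p = 0.0532) at 6 h and 0.62 (adjusted p = 0.0567) at 24 h. Cenpa, the centromeric histone H3 variant, had -0.05 (adjusted p = 0.934) at 6 h, 0.39 (adjusted p = 0.485) at 12 h and 0.74 (adjusted p = 0.0582) at 24 h. Nuf2, the partner of Ndc80, had -0.11 (adjusted p = 0.864) at 12 h, and Cdca8, borealin of the passenger complex, had the lowest 24 h value of the role, 0.21 (adjusted p = 0.444).

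Of the 6 kinesins, 2 fell at 6 h and 2 rose at 24 h, against 5.24% and 5.94% of all tested genes. Kif11, the motor that pushes the spindle poles apart, was at 10.9, 9.48 and 8.42 CPM in DMSO, 3.38, 6.84 and 5.38 after 6 h, 8.96, 10.3 and 10.5 after 12 h, and 15.6, 12.8 and 11.3 after 24 h. The 6 h libraries were all below the others and the 24 h libraries all above. Kif11 fell by 0.85 at 6 h (SE 0.19, adjusted p = 0.00805), and its log2 fold change at 24 h was 0.47 (adjusted p = 0.0953). Kif20a, a motor of the central spindle, fell by 0.44 at 6 h (adjusted p = 0.0252) and rose by 0.46 at 24 h (adjusted p = 0.0116). Its 6 h call did not hold with DMSO replicate 1 or 2 or 6 h replicate 1 or 3 left out (adjusted p from 0.0516 to 0.134), nor its 24 h call with DMSO replicate 3 or 24 h replicate 1 left out (log2 fold change 0.38, adjusted p = 0.0604 and log2 fold change 0.40, adjusted p = 0.0566). Kif2c, which disassembles microtubules at centromeres, was at 3.88, 5.14 and 4.02 CPM in DMSO, 2.44, 4.697 and 3.82 after 6 h, 4.16, 4.54 and 4.59 after 12 h, and 9.61, 8.37 and 6.87 after 24 h, so that the 24 h libraries stood clear while the other groups overlapped. Kif2c rose by 0.93 at 24 h (SE 0.2, adjusted p = 0.00529), with -0.22 (adjusted p = 0.592) at 6 h. At 12 h the role ran from -0.08 (adjusted p = 0.898) for the chromokinesin Kif4 to 0.05 (adjusted p = 0.934) for Kif22, both genes with a pseudogene of the same name. Kif23, a subunit of centralspindlin, had the lowest 24 h value, 0.22 (adjusted p = 0.468).

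Of the 8 genes of spindle assembly, 2 fell at 6 h and 3 rose at 24 h. The shares among all tested genes were 5.24% and 5.94%. Tpx2, which activates Aurora A on the spindle, was at 18.6, 17.6 and 14.4 CPM in DMSO, 13.1, 13.3 and 13.8 after 6 h, 16.3, 18.1 and 15.9 after 12 h, and 25.9, 23.1 and 21.9 after 24 h. Its 24 h libraries were above all others. Tpx2 rose by 0.49 at 24 h (SE 0.099, adjusted p = 0.00288). Ckap2, a microtubule stabilizer, rose by 0.37 (adjusted p = 0.0078), and Nusap1, which bundles spindle microtubules, rose by 0.64 (adjusted p = 0.034). The Nusap1 call did not hold with DMSO replicate 1 or 3 or 24 h replicate 1 left out (adjusted p from 0.0726 to 0.185). Tacc3, which stabilizes spindle microtubules, was at 15.4, 17.5 and 14.4 CPM in DMSO, 8.49, 11.7 and 9.27 after 6 h, 14.4, 13.3 and 11.9 after 12 h, and 17.6, 16.97 and 13.7 after 24 h. It was low at 6 h and overlapped DMSO at 24 h. Tacc3 fell by 0.67 at 6 h (SE 0.13, adjusted p = 0.00278), had -0.26 (adjusted p = 0.323) at 12 h, and its 24 h value was the lowest of the 44, 0.03 (adjusted p = 0.927). Ckap2l, a spindle protein related to Ckap2, fell by 0.56 at 6 h (adjusted p = 0.0194), which did not hold with DMSO replicate 3 or 6 h replicate 1 or 3 left out (adjusted p from 0.052 to 0.105). Aspm, which works at the spindle poles, had -0.24 (adjusted p = 0.519) at 6 h. At 12 h Hmmr, a spindle and hyaluronan-binding protein, had -0.30 (adjusted p = 0.454), and Dlgap5, a kinetochore-fibre protein, 0.20 (adjusted p = 0.69).

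Of the 4 genes of cytokinesis, 2 fell at 6 h, 1 fell at 12 h and 2 rose at 24 h. The shares among all tested genes were 5.24%, 3.48% and 5.94%. Anln (chr9:22332012-22389188, minus strand) encodes anillin, the scaffold of the contractile ring. It was at 20.5, 21.4 and 22.8 CPM in DMSO, 12.6, 12.3 and 11.9 after 6 h, 14.96, 18.4 and 15.8 after 12 h, and 24.3, 23.2 and 24.1 after 24 h. The 6 h and 12 h libraries were all below DMSO and the 24 h libraries above it by a small margin. Anln fell by 0.82 at 6 h (SE 0.089, adjusted p = 1.05e-05) and by 0.39 at 12 h (SE 0.086, adjusted p = 0.00916), and its 24 h value was 0.15 (adjusted p = 0.284). Racgap1, a subunit of centralspindlin, fell by 0.55 at 6 h (adjusted p = 0.0285) and rose by 0.47 at 24 h (adjusted p = 0.0368), with 0.07 (adjusted p = 0.873) at 12 h. Its 6 h call did not hold with DMSO replicate 2 or 3 or 6 h replicate 1 or 3 left out (adjusted p from 0.0567 to 0.136), nor its 24 h call with any 1 DMSO library or 24 h replicate 1 or 2 left out (adjusted p from 0.0577 to 0.18). Prc1, which bundles the central spindle, had -0.38 (adjusted p = 0.051) at 6 h and rose by 0.42 at 24 h (adjusted p = 0.0207), a call that did not hold with DMSO replicate 1 or 24 h replicate 1 left out (log2 fold change 0.36, adjusted p = 0.059 and log2 fold change 0.31, adjusted p = 0.113).

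At 12 h, the exposure with a DMSO group of equal length, Anln was the gene that fell and Cks2 the gene that rose. Neither call held in every fit with 1 library left out. By edgeR's test, 1 of the 44 was called with DMSO replicate 1 or 2 or 12 h replicate 2 left out. With DMSO replicate 3 or 12 h replicate 1 or 3 left out, 0 were called. Anln missed the threshold in 3 of the 6 such fits, with log2 fold changes from -0.36 to -0.32 and adjusted p-values from 0.0535 to 0.0648. Cks2 missed it in 6 of 6, with log2 fold changes from 0.34 to 0.36 and adjusted p-values from 0.0622 to 0.15. For the other 42 genes no change was detectable at 12 h, and the widest uncertainty among the named genes was that of Cdc25c, with a 95% interval from -0.03 to 1.60.

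The fold changes between exposure times do not use DMSO levels, although the DMSO libraries enter the shared estimate of the spread and the time of addition still differs. From 6 h to 24 h, all 44 genes rose, against 7.16% of tested genes that rose and 8.13% that fell. The 24 h libraries were all above the 6 h libraries for each of the 44, a pattern that 14.0% of tested genes showed. The median log2 fold change was 0.99, and 21 genes rose by at least 1. The lowest value was that of Cks2, which rose by 0.33 (adjusted p = 0.0264), and the highest that of Ndc80, which rose by 1.41 (adjusted p = 0.000884). Mki67 rose by 1.38 (SE 0.086, adjusted p = 9.23e-09), Top2a rose by 1.22 (SE 0.093, adjusted p = 9.69e-08) and Ccna2 rose by 1.11 (adjusted p = 7.32e-07). Ube2c rose by 1.27 (adjusted p = 4.92e-06) and Anln rose by 0.97 (adjusted p = 7.8e-07). Leaving out 1 library at a time left between 35 and 42 genes called. The 9 that lost the call under at least 1 alternative were Cks2, Cdc25c, Aurka, Bub1b, Cenpa, Kif23, Dlgap5, Aspm and Ect2. Cks2 did not pass with 6 h replicate 1 or 3 or 24 h replicate 1 or 3 left out (adjusted p from 0.0624 to 0.163), Cdc25c did not with any 1 6 h library or any 1 24 h library left out (adjusted p from 0.0683 to 0.193), and Bub1b did not with 6 h replicate 2 or 3 or 24 h replicate 1 or 2 left out (adjusted p from 0.0512 to 0.0918). The log2 fold change of Cks2 was 0.21 with 6 h replicate 3 left out.

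The rise was spread over both steps. From 6 h to 12 h, 13 genes rose and 0 fell, against 2.57% and 3.52% of tested genes, and at an unadjusted p under 0.05 the counts were 29 and 0, with 16 and 0 by DESeq2. The median was 0.44, and the 12 h libraries were all above the 6 h libraries for 29 genes, against 11.5% of tested genes. Pbk rose by 1.09 (adjusted p = 0.00115), Kif11 rose by 0.90 (adjusted p = 0.00688) and Mki67 rose by 0.79 (adjusted p = 1.58e-05). Ckap2l rose by 0.72 (adjusted p = 0.00459), Top2a rose by 0.69 (adjusted p = 0.000148) and Ccna2 rose by 0.58 (adjusted p = 0.00175). With 12 h replicate 2 left out the count was 8 in place of 13. From 12 h to 24 h, 15 genes rose and 0 fell, against 1.37% and 1.71% of tested genes, with 34 and 0 at an unadjusted p under 0.05 and 19 and 0 by DESeq2. The median was 0.51, and 30 genes had all 24 h libraries above all 12 h libraries, against 9.40% of tested genes. Ccnb1 rose by 0.87 (adjusted p = 0.00397), Ube2c rose by 0.78 (adjusted p = 0.00209) and Plk1 rose by 0.78 (adjusted p = 0.006). Mki67 rose by 0.59 (adjusted p = 0.000326), Anln rose by 0.54 (adjusted p = 0.00118) and Top2a rose by 0.54 (adjusted p = 0.0017). Kif2c rose by 0.90 (adjusted p = 0.0184) but did not hold with any 1 12 h library or 24 h replicate 1 left out (adjusted p from 0.0569 to 0.0957). The count was 9 with 12 h replicate 1 or 2 left out and 8 with 24 h replicate 1 left out.

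Of the 21 genes that rose at 24 h against DMSO, 10 were called under all 11 alternatives tried: Cks2, Plk1, Ube2c, Cenpe, Ndc80, Kif2c, Tpx2, Ckap2, Mki67 and Top2a. Of the 15 that fell at 6 h, 9 were: Ccna2, Cdk1, Foxm1, Ube2c, Kif11, Tacc3, Anln, Mki67 and Top2a.

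Genes of DNA replication and S phase, which act before mitosis, were compared as the nearest related group. Of 40 such genes, 28 fell at 6 h, against 5.24% of all tested genes. All 6 h libraries were below DMSO for 30, against 13.6%. At 12 h and at 24 h, 0 of the 40 changed against DMSO by edgeR's test and 0 by DESeq2. Of all tested genes, 2.18% rose and 3.48% fell at 12 h, and 5.94% rose and 7.41% fell at 24 h. At an unadjusted p under 0.05, 4 of the 40 were lower at 12 h and 3 higher at 24 h. From 12 h to 24 h, 0 of the 40 changed by either tool, with 9 higher at an unadjusted p under 0.05. Of all tested genes, 1.37% rose and 1.71% fell in that step. From 6 h to 12 h, 17 of the 40 rose and 0 fell, against 2.57% and 3.52% of all tested genes. From 6 h to 24 h, 30 rose and 0 fell, against 7.16% and 8.13%. All 24 h libraries were above all 6 h libraries for 35, against 14.0%. The median log2 fold change of the 40 from 6 h to 24 h was 0.42, beside 0.99 for the 44 mitotic genes. Whether the mitotic and replication genes differ in these steps was not tested. Uhrf1, which maintains DNA methylation at replication forks, fell by 0.69 at 6 h (adjusted p = 2.31e-06). Tk1, thymidine kinase, had 0.39 (adjusted p = 0.0682) at 24 h, and the helicase subunit Mcm3 had -0.17 (adjusted p = 0.0956) at 12 h. The summed level of the 40 was 78.9%, 96.5% and 103% of DMSO at 6, 12 and 24 h. The ratio of the mitotic sum to the replication sum was 0.335 ± 0.00959 in DMSO, 0.300 ± 0.0198 at 6 h, 0.340 ± 0.0127 at 12 h and 0.442 ± 0.0352 at 24 h (SD, n = 3). The 24 h libraries, at 0.407 to 0.477, were above all others in this ratio, which is given as a description.

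**Figure D4:**
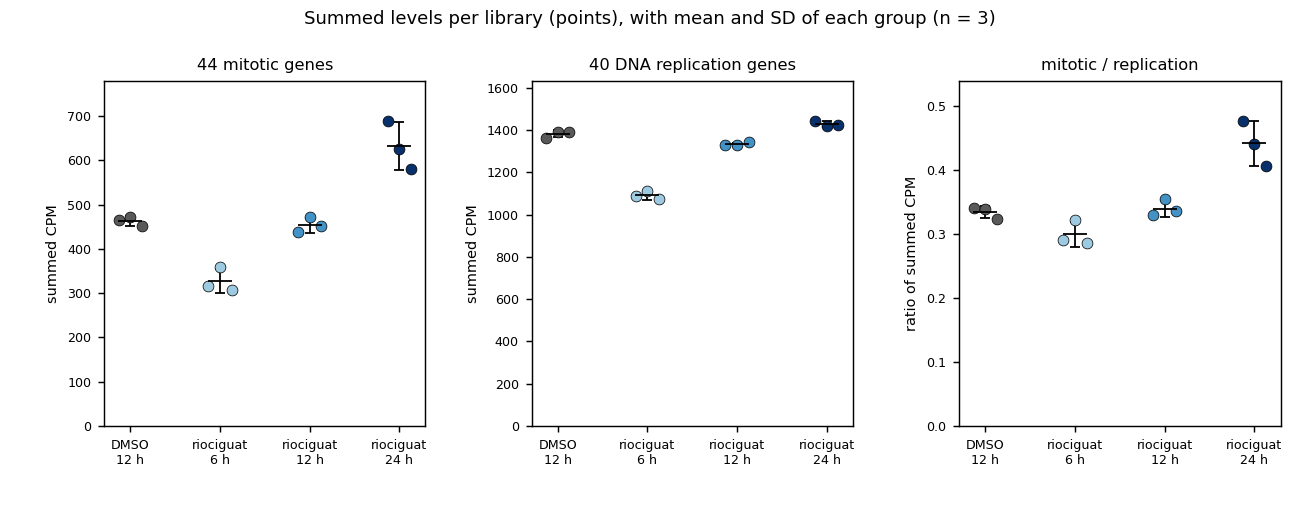
Summed level of the 44 mitotic genes (left, CPM), of the 40 replication genes (middle, CPM) and their ratio (right) in each library (points), with the mean and SD of each group, n = 3. The mitotic sum lies between 307 and 359 CPM at 6 h and between 581 and 690 at 24 h, while the mean replication sum at 24 h is 103% of DMSO.

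Another 123 genes in 5 lists of mitosis and cell cycle control, none of them among the 44, gave smaller median changes. These lists also hold genes that are not specific to mitosis, such as E2f1, Cdkn1a and subunits of cohesin. At 6 h, 2 rose and 17 fell, against 4.48% and 5.24% of all tested genes, with a median log2 fold change of -0.17. At 24 h, 12 rose and 2 fell, against 5.94% and 7.41%, with a median of 0.16. From 6 h to 24 h, 43 rose and 1 fell, against 7.16% and 8.13%. TTTGAA was found in 41.3% of the 104 of these with a promoter. Zwint, a kinetochore scaffold, rose by 0.40 at 6 h (adjusted p = 4.36e-06), by 0.28 at 12 h (adjusted p = 0.00021) and by 0.33 at 24 h (adjusted p = 2.45e-05). Kif18b, a mitotic kinesin, fell by 1.10 at 6 h (adjusted p = 0.00158), and Kif20b, a cytokinesis motor, rose by 0.51 at 24 h (adjusted p = 0.0167). The Kif20b call did not hold with DMSO replicate 2 or 3 or 24 h replicate 1 left out (adjusted p from 0.0539 to 0.0681). Ncapd2, a condensin subunit, rose by 0.38 at 24 h (adjusted p = 0.00181), and Esco2, the cohesin acetyltransferase of S phase, fell by 1.12 at 6 h (adjusted p = 0.0376). The Esco2 call did not hold with DMSO replicate 1 or 3 or any 1 6 h library left out (adjusted p from 0.0639 to 0.129). In the list of G2/M entry and transcription control, the transcription factor E2f1 fell by 0.67 at 6 h (adjusted p = 0.000763). Gtse1, a G2 phase regulator of p53, fell by 0.40 at 12 h (adjusted p = 0.000988), and Cdkn1a, which encodes the CDK inhibitor p21, fell by 0.34 at 24 h (adjusted p = 5.49e-05). Of the anaphase-promoting complex itself, the subunit Anapc11 fell by 0.32 at 6 h (adjusted p = 0.013), Anapc15 had -0.20 (adjusted p = 0.216) at 12 h and Cdc27 had 0.25 (adjusted p = 0.0802) at 24 h. The Anapc11 call did not hold with DMSO replicate 2 or 6 h replicate 2 left out (adjusted p = 0.0545 and 0.0774). At 12 h, the cohesin subunit Stag1 had 0.14 (adjusted p = 0.125) and the spindle protein Fam83d -0.75 (adjusted p = 0.13).

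Markers of stellate cells were detected in every group. The sum of 12 was 3331 to 3396 CPM in DMSO, 3367 to 3501 at 6 h, 3425 to 3594 at 12 h and 3439 to 3651 at 24 h, with Lrat, the enzyme of retinoid storage, at 4.81 CPM in DMSO. Single stellate markers moved in opposite directions within that sum. At 6 h 1 rose and 1 fell, at 12 h 2 rose and 2 fell, and at 24 h 7 rose and 3 fell. Their log2 fold changes at 24 h ran from -0.86 to 0.96. Of all tested genes, 4.48% rose and 5.24% fell at 6 h, 2.18% and 3.48% at 12 h, and 5.94% and 7.41% at 24 h. Markers of further liver cell types were detected as well, and several moved with the groups. The sum of 12 endothelial markers was 1239 to 1339 CPM in DMSO, 1499 to 1586 at 6 h, 1167 to 1248 at 12 h and 998 to 1084 at 24 h, and 3 rose at 6 h while 6 fell and 1 rose at 24 h. The sum of 12 hepatocyte markers was 1265 to 1321 CPM in DMSO, 1115 to 1255 at 6 h, 1198 to 1457 at 12 h and 648 to 870 at 24 h, and 9 fell at 24 h. Cholangiocyte markers stood at 95.1%, 125% and 176% of DMSO at 6, 12 and 24 h. At 24 h 1 of the 8, Spp1, rose by 1.46 (adjusted p = 4.15e-11), while 5 of the 8 were below 0 and the median log2 fold change was -0.14. Macrophage markers stood at 88.1%, 103% and 114%. Their mean sum was 144 CPM in DMSO, with Clec4f, 1 of the markers, at 0.456 CPM. Portal fibroblast and mesothelial markers stood at 78.4%, 95.8% and 93.8%. Lymphocyte markers, of which 5 of 10 passed the filter, stood at 62%, 90.5% and 85.7%, from 2.91 to 8.81 CPM in a library. The part of these cells in the changes of the mitotic genes was not tested. The share of counts from mitochondrial genes ran from 2.61% to 4.75%.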

How the data were processed

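RNA from 12 samples in 4 groups of 3 was sequenced, and the authors deposited 1 table of expected counts per gene, all whole numbers. Per the submitters' processing notes, FastQC, fastp, Salmon and DESeq2 were named, with the build GRCm38; their roles and versions were not given there. Salmon shares reads between similar transcripts. Counts were tested with edgeR 4.0.16 (filterByExpr, TMM, glmQLFit, glmQLFTest, two-sided) in R 4.3.3, in 1 fit over 12 libraries with group as the only term, and Benjamini-Hochberg adjustment over 16036 genes. The biological coefficient of variation was 0.0798. Each standard error was the absolute log2 fold change divided by the square root of the F statistic of its test. The 95% intervals used that standard error and a t quantile. Scripts were tested on simulated data. Alternatives were RLE size factors, no filter, DESeq2 1.42.0, a replicate block, the 2 groups alone, and leaving out each library. No pair of libraries within a group agreed within sampling noise. Same-numbered samples of different groups did not deviate together, so numbers were not taken to pair samples. The 44 genes, the other lists and the rule for named genes were chosen with earlier results of these data known. The rule names 15 core genes whatever their p, the 5 smallest p-values per comparison, the extremes of each role against DMSO, and the smallest p of each other list. Kif20a, Cenpe, Ckap2 and Cdca3 were named after their values were seen. Annotation was GENCODE vM21. Promoters came from RefSeq, and each motif was searched on both strands.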

Additional observations from a re-analysis of the deposited data

Results flagged for a closer look

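For 44 of the 44 mitotic genes the change from DMSO differed between the 6 h and the 24 h exposure to riociguat. Since both exposures were compared with the same DMSO libraries, the difference between them is the direct comparison of the 24 h with the 6 h libraries, in which all 44 were higher at 24 h (edgeR's quasi-likelihood test, adjusted p under 0.05), with a median log2 fold change of 0.99. The exposures also differ in how long after the medium change the compound was added, which cannot be told apart from the length of exposure.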

How the results depend on the processing

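The number of mitotic genes called at 6 h against DMSO was 15, and it was 24 without the low-count filter and 25 with DESeq2. At 12 h against DMSO it was 2, and 1 with a replicate block, in which the replicate number was a term of the model; same-numbered samples share only a number (correlations of their deviations from -0.202 to 0.167 over 18 pairs), and the block moved no other count of calls by over 1.5 times. Leaving out 1 library gave 0 to 1 genes at 12 h against DMSO, 11 to 18 at 6 h, 14 to 22 at 24 h, 8 to 18 from 6 h to 12 h, 8 to 15 from 12 h to 24 h and 35 to 42 from 6 h to 24 h. The cause was not tested. Called in all alternatives were 0 of 2, 9 of 15, 10 of 21, 7 of 13, 8 of 15 and 35 of 44, and no called gene changed sign in any of them. Values near 0 changed sign when 1 library was left out: Tacc3 at 24 h ran from -0.035 to 0.14, and at 12 h Cdc20 from -0.19 to 0.011, Kif22 from -0.14 to 0.19, Kif4 from -0.18 to 0.075 and Racgap1 from -0.063 to 0.21. At 6 h Bub1b ran from -0.074 to 0.14 and Cenpa from -0.31 to 0.19. Values that did not pass also moved by over 1.5 times without changing sign, among them Ccnb1 at 6 h from -0.63 to -0.28, Cdc25c at 12 h from 0.37 to 1.04, Kif2c at 6 h from -0.43 to -0.04 and Kif23 at 24 h from 0.03 to 0.33. With TTTAAA also counted as a CHR word, 86.1% of the 36 promoters held a match, against 23.1% of tested genes.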
